A study of Mus musculus with 3 samples.

Results

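The array of kidney tubule cells cultured for 3 days was compared with the array of the same kind of cells straight after isolation (day 0), leaving out the day between them. The comparison took every named gene whose probes were well above background on at least 1 of these 2 arrays, which were 19101 of the 19861 genes with a named probe. On any of the 3 arrays of the series, 19142 genes passed. The cells are called mPTECs in the labels and came from the kidneys of male mice of 1 month. The day 0 cells had no time on a dish. The day 3 cells grew on dishes in DMEM/F12 medium with an insulin, transferrin and selenium supplement, non-essential amino acids, hydrocortisone, penicillin, streptomycin and 1% FBS. The labels do not say how many mice gave the cells. There was 1 array for each day. The differences therefore lack a replicate check, no test could be made, and the values describe 2 arrays.

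The proximal tubule takes glucose, amino acids, phosphate and filtered proteins back from the urine through carriers and endocytic receptors of its brush border. It burns fatty acids rather than glucose to drive the sodium pump that powers this transport, and it makes glucose from lactate and amino acids. Primary cultures of such cells are known to flatten, spread and divide on plastic and to lose much of this transport and metabolism.

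Signals are log2 values set against each array's 75th percentile, so 0 is that percentile, which stood at 1184 intensity units on day 0 and 1515 on day 3. A log2 ratio is the day 3 signal minus the day 0 signal, and a ratio of 2 is a 4-fold difference. Spots of the same probe spread with a median SD of 0.15, which alone gives a ratio a spread of 0.21, or 1.16-fold. Probes of the same gene spread more, with a median SD of their log2 ratios of 0.47 over 7575 genes. A gene was read from its brightest probe. Abundance ranks order genes by that signal, from 1 for the brightest. Probes differ in how brightly they report the same amount of RNA, so ranks compare probes and not molecules. The flag for signals well above background was lenient: 844 of 913 olfactory receptor genes carried it on at least 1 of the arrays. Their signals had a median of -3.09 on day 0 and -3.64 on day 3, and 95% of them lay below -0.86 and -1.33.

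Of the 19101 genes, 1007 were at least 4-fold higher on day 3 (5.27%), 1519 were at least 4-fold lower (7.95%) and 11721 lay within 2-fold (61.4%). The higher genes made up 39.9% of the 4-fold differences, against 56.86% with median centring and 61.04% with spike-in scaling, so the balance between the directions is not fixed by these data. Those scalings add 0.33 and 0.41 to every ratio, and quantile normalization moves the median gene by 0.13. With the scaling used here, 79 genes were at least 64-fold lower and 51 at least 64-fold higher. These very large differences were not counted under the other scalings, so their balance is not fixed either. Of the lower genes 496, and of the higher genes 149, lay on both arrays within the range that holds 95% of olfactory receptor signals. Signals were well above background on day 3 alone for 372 genes and on day 0 alone for 235. Their ratio was an upward or a downward bound. The exception was 103 genes without a ratio, because the bound had the opposite sign. Across the 18494 genes measured on both arrays, the signals of the 2 days correlated with Pearson's r = 0.88 and Spearman's rho = 0.88, as a description over genes, which are not replicates.

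**Figure D1:**
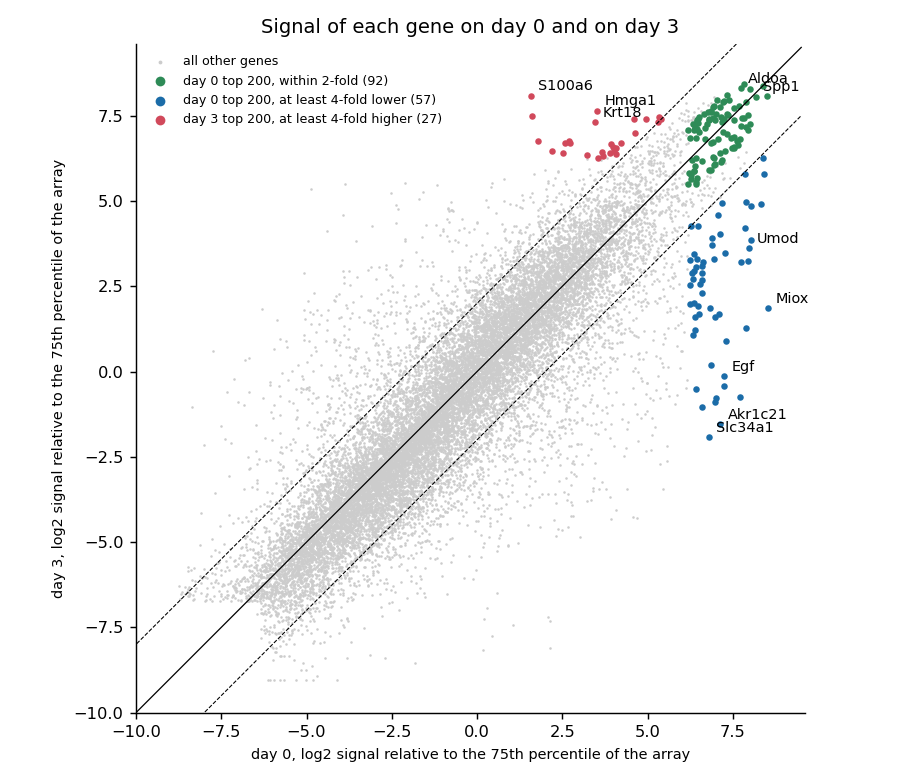
Each point is a gene, at its log2 signal on day 0 (x axis) and on day 3 (y axis), both relative to the 75th percentile of the array. The solid line marks equal signals and the dashed lines a 4-fold difference. The 92 bright day 0 genes within 2-fold hug the solid line, the 57 that were at least 4-fold lower reach down to -1.92 for Slc34a1, and the 27 gained genes started between 1.58 for S100a6 and 5.40 for H2ac10.

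The order of the brightest genes changed more than that correlation shows. Of the 20 brightest genes of day 0, 5 were among the 20 brightest of day 3, and the overlap was 38 of 100, 89 of 200, 272 of 500 and 580 of 1000. Of the 200 brightest genes of day 0, 92 lay within 2-fold on day 3, 38 were 2- to 4-fold lower, 57 were at least 4-fold lower, 13 were 2- to 4-fold higher and none was at least 4-fold higher. Among the 200 brightest of day 3, 98 lay within 2-fold, 72 were 2- to 4-fold higher and 27 at least 4-fold higher, 2 were 2- to 4-fold lower and 1 was at least 4-fold lower. Choosing genes by their day 0 signal favours lower ratios and choosing by day 3 favours higher ones, so these counts describe the 2 lists and are not compared with each other. The share of genes at least 4-fold lower was 28% in ranks 1 to 50 of day 0, 30% in ranks 51 to 100, 26% in ranks 201 to 500, 16.8% in ranks 501 to 1000 and 9.9% in ranks 2001 to 5000. It was thus between 26% and 30% in every band down to rank 500.

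**Figure D2:**
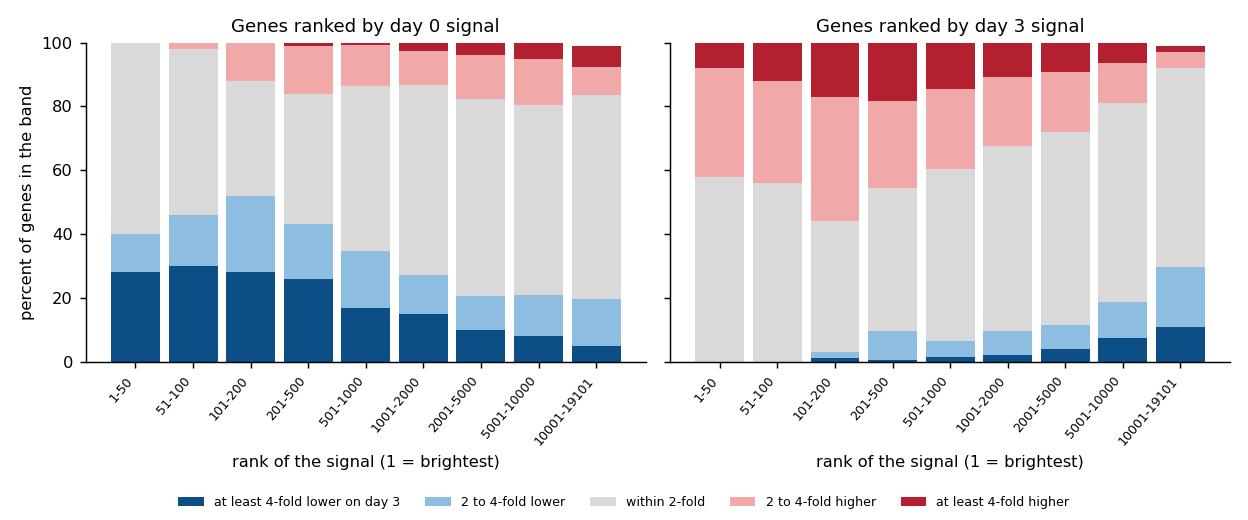
Bars give the percent of genes in each band of abundance rank, by day 0 rank on the left and day 3 rank on the right, split by their fold difference on day 3. Genes with no fold, in the last band, are left blank. On the left, the share at least 4-fold lower is 28% in the first band and 4.91% in the last.

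Among the 92 retained genes, 25 encode proteins of the cytosolic ribosome (27.2%, against 17.5% of the day 0 top 200). A further 17 are nuclear genes for subunits of the respiratory chain or the ATP synthase (18.5%, close to the 16.5% of the day 0 top 200), and 16 more such genes were 2- to 4-fold lower. The day 0 top 200 held 8 of the 20 measured proximal tubule markers and 4 of the 32 genes of fatty acid oxidation. It also held 3 of the 42 genes of amino acid breakdown and 3 of the 11 of gluconeogenesis, and these lists share some genes. None of the listed genes was retained, against 92 of the whole 200. The ratios of the retained genes closest to the 2-fold limit were -0.994 for Atpif1 and -0.997 for Cox4i1 inside it, and 1.004 for Rps16 and -1.008 for Dbi outside it. The limit of the top 200 lay at signals of 6.18 on day 0 and 6.26 on day 3. Rpl8 was the last gene inside the day 0 list and Mpc2, a subunit of the mitochondrial pyruvate carrier, with a ratio of -2.18, the first outside it. Ldhb was the last gene inside the day 3 list and Anp32b, with a ratio of 2.44, the first outside.

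Cox6a1, a subunit of cytochrome c oxidase, was second on day 0 at 8.50 and sixth on day 3 at 8.09. Its probe lies at chr5:115795726-115795785 on mm9, the build of the array files. Spp1, the gene of osteopontin, a secreted protein of injured and distal tubules, stood at 8.18 on day 0 (rank 7) and at 8.05 on day 3 (rank 8). This gene, often read as a sign of injury, was already at the top of the day 0 array, and its ratio lay within the spread that spots alone give. The ribosomal genes Rplp1 and Rps23 went from ranks 11 and 24 to ranks 4 and 1, at ratios of 0.29 and 0.60. Fth1, the heavy chain of the iron store ferritin, moved from 8.01 to 7.25, and Ftl1, the light chain, from 6.91 to 7.42. Both chains stayed among the 100 brightest genes.

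Others of the brightest retained genes serve mitochondria and protein turnover. Slc25a5, the carrier that trades ADP for ATP across the inner mitochondrial membrane, had a ratio of -0.71, and the ATP synthase subunit Atp5g3 one of -0.85. The lysosomal protease gene Ctsl had a ratio of -0.99, and Chchd10 and Chchd2, small proteins of the space between the mitochondrial membranes, had -0.87 and -0.67. All 5 lay below 0, also after adding the 0.41 of spike-in scaling. COX2, which is encoded in the mitochondrial genome, went from rank 13 to rank 39 (-0.43), but the files place its probe at chr1:24621739-24621798 and not on the mitochondrial chromosome. Aldoa, an aldolase of glycolysis, went the other way, from 7.73 and rank 30 to 8.30 and rank 3. Cdh16, a cadherin specific to kidney tubules, was rank 66 on day 0 at 7.17 and rank 206 on day 3 at 6.20, and no other cadherin was in the day 0 top 200.

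Retention by the brightest probe did not always hold for the rest of a gene's probes. Of the 92 retained genes, 45 had another probe above background, and for 19 of these another probe differed by more than 2-fold. The 2 other probes of Rplp0, a ribosomal stalk protein, gave 1.51 and 1.62 against 0.02. For Ptprz1, a receptor phosphatase better known from glia, the brightest probe stood at 8.39 and 8.37, ranks 4 and 2, while the other measured probes gave -2.27 and -1.79. Leaving out such genes and clone or pseudogene names, 72 retained genes remained.

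**Figure D3:**
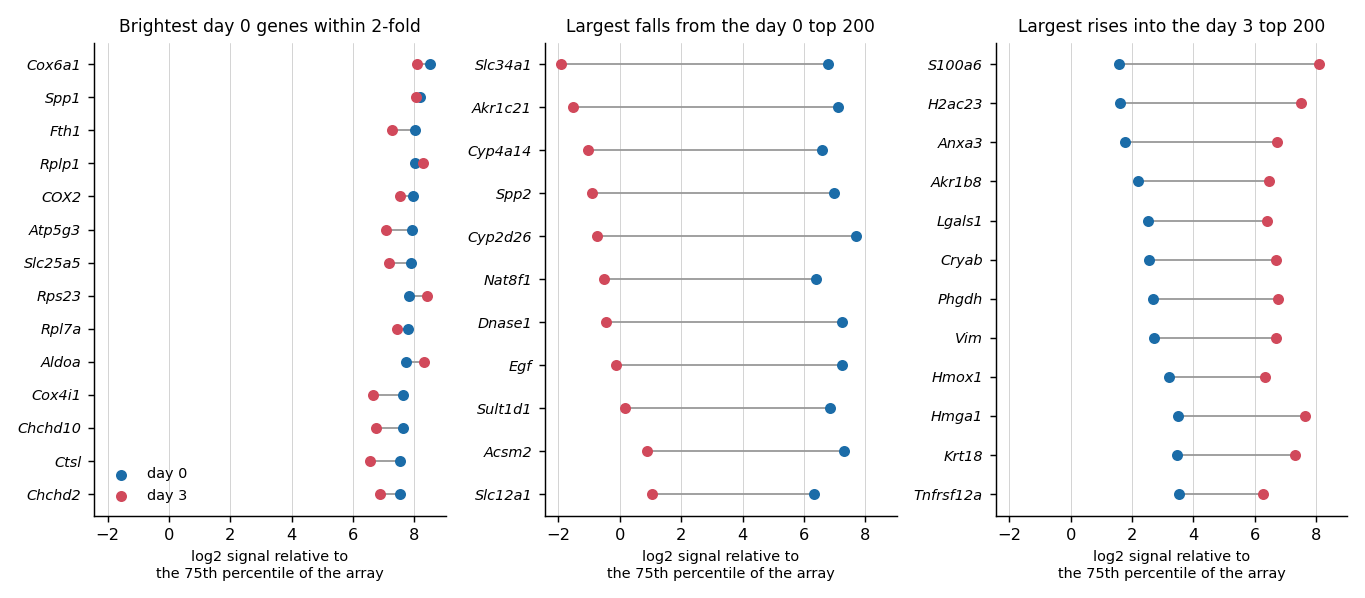
Points are log2 signals relative to the 75th percentile of the array, blue for day 0 and red for day 3, joined for each gene. The left panel holds 14 of the 15 brightest retained genes whose other probes also lay within 2-fold, the middle panel 11 of the 12 largest falls in rank from the day 0 top 200, and the right panel the 12 largest rises into the day 3 top 200. The retained genes differ by less than 1 unit each, whereas Slc34a1 differs by -8.71 and S100a6 by 6.51.

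The 57 bright day 0 genes that were at least 4-fold lower included 8 of the proximal tubule markers, 6 solute carriers, 4 markers of the thick ascending limb, 3 genes from each of the lists of fatty acid oxidation, glucose synthesis and amino acid breakdown, and no ribosomal protein gene. Their median rank on day 3 was 2395. All remained well above background, 10 of them still within the first 1000 ranks and 14 beyond rank 5000. Of these genes, 19 had another measured probe, and in each of the 19 every other probe ran downward by more than 2-fold. In bulk RNA, fewer cells of a type and less RNA per cell cannot be told apart.

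Miox, the enzyme that starts the breakdown of inositol in the kidney cortex, was the brightest gene of day 0 at 8.54 and stood at 1.86 on day 3, rank 4001. Its probe lies at chr15:89167372-89167430 (mm9). Fbp1, the gluconeogenic fructose bisphosphatase, had rank 16 and then 5123. Kap, an androgen-regulated protein of the proximal tubule, had 29 and 1976, and Lrp2, the endocytic receptor megalin, 74 and 4326. Slc34a1, the sodium-phosphate carrier of the brush border, made the largest fall in rank, from 112 to 11170, with signals of 6.79 and -1.92. The day 3 signal is within the range of olfactory receptor probes. Akr1c21, a steroid-converting aldo-keto reductase, went from rank 71 to 10396, and the cytochrome P450 genes Cyp2d26 and Cyp4a14 from ranks 31 and 135 to 8963 and 9501. The enzyme genes Sult1d1, a sulfotransferase, and Acsm2, of medium-chain fatty acid activation, had ratios of -6.68 and -6.42. Spp2, a secreted phosphoprotein, had -7.89, and Dnase1, a secreted nuclease, had -7.68. For Nat8f1, an acetyltransferase gene, the brightest probe gave -6.93 and the other -2.60.

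Of the 12 largest falls in rank, 2 were genes of the thick ascending limb, a part of the loop of Henle. Egf, the gene of epidermal growth factor, went from 7.24 to -0.13 and from rank 58 to 7766. Slc12a1, the sodium-potassium-chloride cotransporter, went from 6.33 to 1.06, and its other probe gave -2.48. Umod, which encodes uromodulin, was rank 12 on day 0 at 7.98 and rank 1518 on day 3 at 3.61. Kcnj1, a potassium channel of the same segment, went from rank 143 to 4323. The labelled cell type was therefore not the only tubule segment with bright markers on the day 0 array. Over all 7 markers of the thick ascending limb, 5 differed downward by at least 4-fold, against 7.95% of all genes. The ratios of the 7 ran from -7.37 to 0.88, and their summed signal went from 626 to 25.2 times the 75th percentile.

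Other bright genes among the 57 guard against oxidants or respond to stress. Gpx3, the glutathione peroxidase that the proximal tubule secretes into plasma, went from rank 6 at 8.32 to rank 583 at 4.91, and Selenop, the plasma selenium carrier, from rank 54 to 1671 (-3.78). Hspa1a, an inducible heat shock protein, had a ratio of -3.72, and the early response gene Egr1 one of -2.89. Gabarapl1, of autophagosome formation, was rank 3 on day 0 and 284 on day 3 (-2.60), and Ndrg1, a gene induced by low oxygen and metals, went from rank 9 to 616 (-3.16). On day 3 all 6 lay between ranks 284 and 2931, a range that also holds the median rank of the 57.

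RefSeq promoters, 250 bases before to 50 after the start on GRCm38.p6, were matched by symbol to 15067 of the 19101 genes, with 18675 promoters in all. Only 41 of the 57 lost and 70 of the 92 retained genes had a promoter, under 80% of each set, so a comparison of these sets is void and the values describe the matched genes. The median GC content of the promoters was 50% for the matched lost genes and 59.3% for the matched retained genes. The motif CAAAGTCCA of HNF4, a nuclear receptor of liver and kidney epithelium, was searched on both strands. It was rare, in 0.498% of all promoters. Of the 1519 genes at least 4-fold lower 1193 had a promoter, also under 80%, so their 1.26% describes the matched genes and makes no comparison with all. A match is a string of letters and no evidence of binding. For Hnf4a, a gene of this receptor, the brightest probe gave a ratio of -3.40, with -3.91 and -0.87 from its others.

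The top of the day 3 array was held by genes of protein synthesis. Of its 20 brightest genes, 13 encode ribosomal proteins, led by Rps23 at 8.42, and Rps2, Rps20, Rpl41 and Rpl37a lay within the first 11 ranks with ratios of 0.78, 1.08, 0.94 and 0.56. Rpl12 came from farthest among these 13, from rank 217 to 16 (1.75). Rack1, a scaffold of the small ribosomal subunit, was rank 19. Ribosomal protein genes held 58 of the first 200 ranks, against 35 on day 0, while nuclear genes of the respiratory chain and ATP synthase held 12, against 33. Translation initiation factors went from 0 to 4, keratins from 0 to 3 and tubulins from 0 to 3. Genes of the actin cytoskeleton list went from 1 to 6 and those of tubule injury from 2 to 9, whereas the 8 proximal tubule markers among the first 200 of day 0 had all left. The 9 tubule injury genes include the 3 keratins, so these counts overlap. Ribosomal, tubulin and histone genes have near-identical copies, and probes can take signal from these, so such genes are uncertain one by one. Of the day 3 top 200, 15 carried clone or pseudogene names.

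Only 27 of the brightest 200 genes of day 3 were at least 4-fold higher than on day 0, and their median rank on day 0 was 1367. None had come from beyond rank 5000. S100a6, a calcium-binding protein of dividing and migrating cells, made the largest rise in rank, from 1.58 and rank 4341 to 8.09 and rank 7. Its probe lies at chr3:90418160-90418219 (mm9). The histone gene H2ac23 went from rank 4282 to 40, and Hmga1, a chromatin protein of proliferating cells, from 3.52 and rank 1539 to 7.64 and rank 27. Anxa3, an annexin, went from 1.78 to 6.74 and Lgals1, the galactose-binding lectin galectin 1, from 2.52 to 6.40. Both had been outside the first 2000 ranks.

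Keratins of simple epithelia entered together. Krt7, Krt8 and Krt18 had ranks of 754, 565 and 1580 on day 0 and of 54, 55 and 71 on day 3, with ratios of 2.82, 2.46 and 3.84. Vim, the intermediate filament gene of mesenchymal cells, went from rank 2477 to 128 (3.97) by its brightest probe, but its other probe gave -0.05. Cryab, a small heat shock protein, had 4.14 by 1 probe and 0.84 by the other. The cytoskeletal genes Tubb5, Tpm4 and Arpc1b, of microtubules, actin filaments and branched actin networks, had ratios of 2.60, 2.53 and 2.79.

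A further group among the gained genes belongs to redox and stress metabolism. Hmox1, which degrades heme, went from rank 1839 to 184 (3.13), Txnrd1, a thioredoxin reductase, from 971 to 129 (2.47) and the aldo-keto reductase Akr1b8 from 3268 to 154 (4.27). Phgdh, the first enzyme of serine synthesis, went from 2.70 to 6.75, and its 2 other probes gave 4.06 and 4.51. Asns, the asparagine synthetase gene, ended outside the top 200 at rank 326, from 5943. Gdf15, a stress-induced cytokine, had a ratio of 2.48, Ccn2, a secreted matrix protein also called connective tissue growth factor, 2.74, and Tnfrsf12a, a receptor of injured tissue, 2.73. Phgdh was the only one of these 8 genes with further probes.

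Genes were also grouped by symbol into 68 families, each with at least 8 members. The median ratio of 52 families lay within 2-fold, that of 9 was at least 2-fold lower and that of 7 at least 2-fold higher, against a median of -0.11 over all genes. The families named next keep the sign of their median under each alternative tried.

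Genes of protein synthesis, folding and degradation lay mostly above 0, whereas over all 18998 genes with a ratio 8663 lay above 0 and 10335 below. Of 80 cytosolic ribosomal protein genes 76 had a ratio above 0 and 1, Rpsa, was at least 4-fold higher (2.13). Their median was 0.94, and 42 lay within 2-fold. All 9 subunits of the Cct chaperonin, which folds actin and tubulin, were more than 2-fold and less than 4-fold higher, from 1.14 for Tcp1 to 1.91 for Cct3 (median 1.65), although the other probe of Cct3 gave -0.49. Of 44 proteasome genes 40 were above 0 (median 0.95), and of 52 initiation factor genes 42 (median 1.05). The largest ratios under these prefixes, 2.48 for Psmc3ip and 3.50 for Eif4ebp1, belong to a recombination factor and a translation inhibitor and not to subunits. Of 35 aminoacyl-tRNA synthetase genes 9 were at least 4-fold higher (25.7%, against 5.27% of all genes), led by Cars at 3.12. Of 21 nucleoporin genes, which line the pores of the nucleus, 8 reached that (38.1%), and the median was 1.65. Mitochondrial ribosomal proteins, with a median of 0.34 and 68 of 78 within 2-fold, lay closer to 0 than the cytosolic ones.

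Nuclear genes of the respiratory chain lay on the other side of 0, at medians near 2-fold. All 37 complex I genes of the Nduf family had a ratio below 0, from -2.16 for Ndufa6 to -0.29 for Ndufb6, with a median of -0.95. All 17 Atp5 genes did too (median -0.85), and 24 of 26 Uqcr and Cox genes (median -0.94). With spike-in scaling, 0.41 higher, the genes nearest to 0 such as Ndufb6 take the other sign. The lowest ratio was that of an isoform: Cox7a1, the form of striated muscle, had -4.21, whereas Cox7a2, the form of other tissues, had -1.37. Complex I held 11 of the first 200 ranks on day 0 and 1 on day 3, a large change of rank for a small ratio. Of the 4 mitochondrially encoded genes, ATP6 had the lowest ratio at -3.08, CYTB had -2.05, ND4 -1.02 and COX2 -0.43. The files place the ATP6 probe on chromosome 1, like that of COX2.

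**Figure D4:**
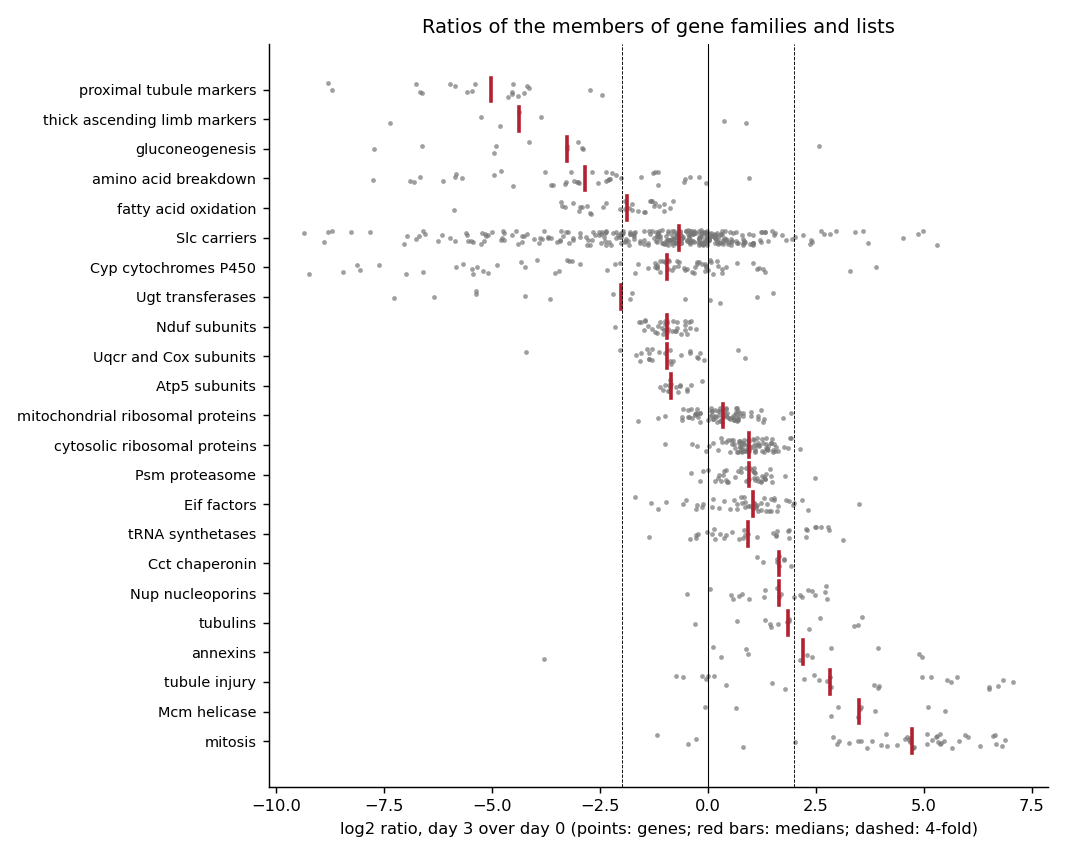
Points are the log2 ratios, day 3 over day 0, of the members of each family or list, bounds included at their bound value; red bars are medians and dashed lines mark 4-fold. Proximal tubule markers lie lowest with a median of -5.02, and mitosis genes lie highest at 4.71. Most respiratory chain subunits lie below 0, with 2 of the 26 Uqcr and Cox genes above it. Most ribosomal and proteasome genes and all chaperonin genes lie above 0, with 4 ribosomal and 4 proteasome genes below it.

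Families of transport and detoxification were divided, with long tails downward. Of 331 Slc solute carriers 89 were at least 4-fold lower (26.9%, against 7.95% of all genes) and 16 higher, and 161 lay within 2-fold. In the first 1000 ranks they went from 33 to 11. The largest ratio among carriers measured on both arrays was 5.30, for the cystine carrier Slc7a11, and the lowest -8.90, for the phosphate carrier Slc34a3. Of 78 cytochromes P450 27 were at least 4-fold lower and 2 higher, and the 9 in the first 1000 ranks of day 0 had all left. Cyp1b1, which acts on polycyclic compounds and estrogens, had 3.89 by 1 probe and 0.34 by its other. Glucuronosyltransferases had 7 of 14 genes at least 4-fold lower and a median of -2.01, and aquaporins 6 of 11 and -2.02. Of 15 carboxylesterases 7 were that low, and their median was -1.74.

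Metabolic lists left the upper ranks to different extents. Of the 32 genes of fatty acid oxidation, 20 stood in the first 1000 ranks on day 0 and 2 on day 3. In amino acid breakdown these counts were 14 and 1 of 42 genes, in gluconeogenesis 6 and 0 of 11, and in glycolysis 10 and 11 of 21. In the citrate cycle they were 13 and 8 of 19. The median ratio of these 19 genes was -1.02, with 16 below 0 and 3 above. At least 2-fold lower were 10 of them, and 2 were at least 4-fold lower, against 7.95% of all genes. Mdh2 had rank 47 and then 38, while the cytosolic Mdh1 went from rank 64 to 569. The acyl-CoA dehydrogenases that open fatty acid oxidation all lay below 0, and 5 of 10 were at least 4-fold lower.

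The enzyme genes G6pdx and Pgd, which make NADPH in the pentose phosphate pathway, had ratios of 2.26 and 2.40, and Taldo1 and Tkt, of its later steps, had 1.13 and, by the brightest probe of Tkt, 1.06, with -0.88 and 0.34 from others. These 4 genes were chosen after their values were seen. Of 24 genes of cholesterol synthesis and uptake 7 were at least 4-fold higher (29.2%, against 5.27% of all genes) and 1 lower. Their median was 1.49. The highest was Fdps, which makes farnesyl diphosphate, at 4.21 with 1.20 from its other probe. Hmgcs1, the brightest member on both days, stayed at 5.56 and 5.35. Acat2, an acetyl-CoA thiolase, was the member at least 4-fold lower (-2.78).

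Of 19 genes of the endocytic receptor list 5 were at least 4-fold lower (26.3%, against 7.95% of all genes). Within 2-fold lay 8, and 1 was at least 4-fold higher. The higher one was Ap2b1, an adaptor of clathrin coats, at 2.77 with -0.52 from its other probe. The receptor partners Lrp2, Cubn and Amn had ratios of -5.40, -4.64 and -2.54, and Lrpap1, the chaperone of megalin, -2.59. The clathrin light chain Clta had 0.52, and Rab5a and Rab7, small GTPases of early and late endosomes, had -0.06 and 0.31. Of 27 lysosomal genes 4 were at least 4-fold lower (14.8%, against 7.95% of all genes) and 14 lay within 2-fold. The lysosomal protease gene Ctsd had 1.12, Ctsb -0.63, the membrane protein Lamp2 -2.58 and the acid lipase Lipa -2.64. Endoplasmic reticulum chaperones stayed close to their day 0 level, 16 of 20 within 2-fold against 61.4% of all genes, with Hspa5 at 1.07.

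Of 30 transcription factors of kidney tubules 11 were at least 4-fold lower (36.7%, against 7.95% of all genes) and 1 higher. Another 10 lay within 2-fold, beside 61.4% of all genes. The lower ones include nuclear receptors of metabolism, Vdr, the vitamin D receptor, at -4.19, Ppara, of fatty acid oxidation, at -4.23 and Nr1h4, the bile acid receptor, at -3.90. The coactivator Ppargc1a went from 4.05 to 0.32. Sox9, a factor of tubule repair, was the higher one at 2.23, with other probes at 0.97 and 1.97. Pax8, of the developing nephron, lay within 2-fold at 0.88 with -0.28 from its other probe, as did Tfcp2l1, of the collecting duct, with signals of 3.62 and 3.38.

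In the plot of families, the Mcm and mitosis genes had the highest medians. Of 10 Mcm genes, which encode the replicative helicase and relatives, 8 were at least 4-fold higher (80%, against 5.27% of all genes). The family median was 3.50, and Mcm6 was brightest on day 3 at 5.59 and rank 340. Of 21 kinetochore genes of the Cenp family 14 were that much higher (66.7%, median 3.27), and of 44 mitosis genes 40 (90.9%, median 4.71). Few of them were bright: no Mcm or Cenp gene reached the first 200 ranks, and 8 of the mitosis genes reached the first 1000. Pttg1, the securin gene, ran the other way at -1.18, from 4.33. Of 36 kinesins 11 were at least 4-fold higher (30.6%), such as Kif20a, which acts in cytokinesis, at 5.36. Another 4 were at least 4-fold lower (11.1%, near the 7.95% of all genes). The lowest was Kif12, a kinesin of kidney epithelium, at -3.17.

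Promoters of the mitosis list share stretches of letters. Their shares describe the genes chosen for the list and do not bear on the difference between the days. The CCAAT box was present in 78.9% of the 38 promoters matched to the mitosis list, against 37.8% of all promoters, and the cell cycle homology region TTTGAA, on either strand, in 73.7% against 14.4%. Both are known elements of genes expressed late in the cell cycle. Promoters were found for 36 of the 44 mitosis genes. Their median GC content was 59%, against 58% for all. The 250 bases before the start are shown for 2 regulators of mitosis. They are Cdk1, its driving kinase, with signals of -3.75 and 2.93 (its other probe gave a ratio of 1.24), and Cdc20, an activator of the anaphase ligase, with signals of -0.86 and 4.79. They lie at chr10:69352913-69353162 and chr4:118437344-118437593, both on the minus strand. Capitals mark the CCAAT box and the TTTGAA element, on either strand.
Cdk1: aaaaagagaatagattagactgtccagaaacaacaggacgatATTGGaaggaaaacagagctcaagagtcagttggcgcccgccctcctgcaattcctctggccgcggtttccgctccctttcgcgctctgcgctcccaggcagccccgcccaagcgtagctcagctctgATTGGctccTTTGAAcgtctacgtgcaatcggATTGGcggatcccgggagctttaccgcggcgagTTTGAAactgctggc
Cdc20: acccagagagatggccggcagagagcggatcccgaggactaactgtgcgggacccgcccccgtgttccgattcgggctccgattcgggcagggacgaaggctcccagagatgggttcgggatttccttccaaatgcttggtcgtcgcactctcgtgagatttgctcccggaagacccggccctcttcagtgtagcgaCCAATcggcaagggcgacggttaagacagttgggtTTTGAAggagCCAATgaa
Cdk1 held 3 CCAAT boxes, 208, 80 and 48 bases before the start, and 2 TTTGAA elements at 71 and 15. Cdc20 held CCAAT at 53 and 8 bases and TTTGAA at 18. Of the 1007 genes at least 4-fold higher 783 had a promoter, under 80%, so a comparison with all promoters is void for that set and its shares describe the matched genes. Their shares of the CCAAT box and TTTGAA were 39.6% and 18.6%. The other motifs searched in those matched genes gave 3.24% for the E2F sites TTTGGCGC and TTTCGCGC. The NF-kB site GGANTTTCC gave 2.82% and the AP-1 site TGANTCA 8.35%. The Tead site GGAATG gave 14.2%, and the amino acid response element ATTGCATCA, of Atf4, gave 0.731%, which was 7 promoters of 958. The NF-kB and Tead motifs can share bases.

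Some groups of related genes had members on both sides of 0, which a family median does not show. Ldhb, the lactate dehydrogenase of oxidative tissues, went from rank 5 to rank 200 (-2.12), and Ldha from 154 to 82 (0.68). The day 0 array thus had Ldhb at 8.38 and Ldha at 6.43, and the day 3 array 6.26 and 7.11. Ldhb falls short of 4-fold under 4 alternatives. Among hexokinases, Hk2 went from -3.94 to 4.58, while Hk1 differed by 0.63 with other probes from -2.63 to 1.01.

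The facilitative glucose transporters divided in the same way. Slc2a1, the carrier of most dividing cells, went from 3.14 to 5.49, and Slc2a2, Slc2a4 and Slc2a5 had ratios of -3.92, -5.19 and -7.82. Slc2a4, the insulin-regulated carrier of muscle and fat, stood at 3.06 on day 0 and -2.13 on day 3. In fatty acid binding proteins and carbonic anhydrases, all members in the plot of related genes lay below 0, to different extents, although Fabp5 and Car2 would lie above 0 with the 0.41 of spike-in scaling. Fabp1, a fatty acid binding protein, was at least 651-fold lower, being not well above background on day 3, Fabp3 had -3.85 and Fabp5 stayed low on both days at -5.05 and -5.26. Car4 and Car14, membrane-bound carbonic anhydrases of the tubule, had -5.98 and -6.08, and the cytosolic Car2 had -0.31.

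Claudins and actin-binding genes again lay on both sides of 0. Cldn2 and Cldn10, claudins that form ion pores in the proximal tubule and the loop, had ratios of -3.21 and -3.53, while Cldn1, Cldn3 and Cldn4 had 2.76, 2.94 and 2.32. Cldn7 was the brightest claudin of day 3 at 5.08. Vil1, villin of the brush border core, went from 4.44 to 2.11 and its other probe gave -2.35, whereas the related actin-severing genes Gsn, Scin and Capg had 1.79, 2.56 and 3.13. Of the glutathione peroxidases, Gpx1 and Gpx3 had -1.69 and -3.42 and Gpx4, which protects membrane lipids, stood at 5.80 and 5.78.

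**Figure D5:**
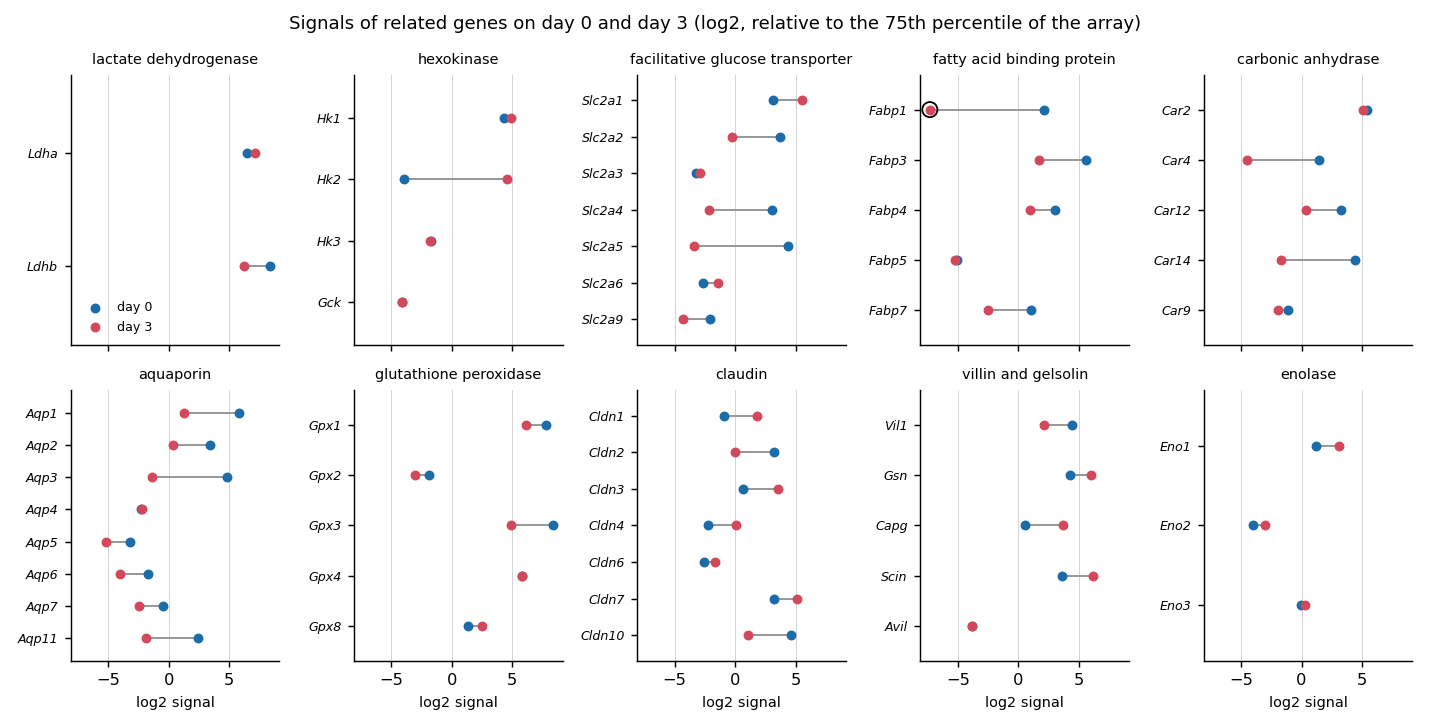
Points are log2 signals relative to the 75th percentile of the array for related genes, blue for day 0 and red for day 3; a black ring marks a day 3 signal not well above background. Ldhb, Slc2a5 and Cldn10 move left while Ldha, Slc2a1 and Cldn3 move right within the same group.

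The labelled cell type was checked against marker lists. Of all genes, 7.95% were at least 4-fold lower and 5.27% at least 4-fold higher. All 20 proximal tubule markers were well above background on day 0, 15 of them within the first 1000 ranks, and all 20 were at least 4-fold lower on day 3, from -8.82 for Slc5a12 (its other probe gave -0.96) to -2.45 for Ggt1. Markers of other kidney cells carried the lenient flag for signals above background on day 0 as well, and most were lower on day 3. The median day 0 signal of the intercalated list, -1.82, lay within the range of olfactory receptor signals. The medians of the distal, principal, podocyte and endothelial lists were 3.02, 0.74, 0.81 and 0.75, above that range. Of 5 distal convoluted tubule markers 4 were at least 4-fold lower, of 8 principal cell markers 5, of 8 intercalated cell markers 6, of 7 podocyte markers 3 and of 10 endothelial markers 5, and none of these was 4-fold higher. Their summed signals, in multiples of the 75th percentile, went from 57.2 to 2.22 in the distal list, from 51.8 to 7.90 in the principal, from 17.3 to 1.09 in the intercalated, from 20.6 to 5.27 in the podocyte and from 38.0 to 9.80 in the endothelial list, against 1862 and 53.8 for the proximal list. Calb1, of the distal tubule, went from 5.25 to -0.54, Aqp3, of principal cells, from 4.79 to -1.36, Slc26a4, of intercalated cells, from 3.45 to -1.80 and Kdr, of endothelium, from 2.14 to -1.29. Their part in the lower counts above was not tested.

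Leukocyte and stromal markers gave no such pattern. Of 12 macrophage markers 9 lay within 2-fold, with Lyz2 at 3.59 and 3.74 and Cd68 at -2.62 and -0.28, and of 7 lymphocyte markers none was 4-fold different. Of 8 fibroblast markers 2 were at least 4-fold higher, Col1a1 at 2.83, with other probes from -0.21 to 0.98, and Col1a2 at 2.01. The summed signals of the macrophage, lymphocyte and fibroblast lists were 15.1, 1.42 and 5.40 on day 0 and 17.9, 0.965 and 10.9 on day 3. Their median signals were -1.98, -2.64 and -2.90 on day 0 and -2.29, -3.67 and -1.69 on day 3. All lay within the range of olfactory receptor signals, so little can be said of these dim lists. Smooth muscle, urothelium and keratinocyte lists had 1, 0 and 1 genes beyond 4-fold in either direction, and the mesothelium list 3 of 5. In the mesothelium list 2 genes were higher and 1 was lower. Msln, not bright on day 0 at -4.41, reached 4.12. The lower one was Gpm6a, the brightest of the list on day 0, which went from 1.09 to -1.72, with a ratio of -2.63 from its other probe. No cell type shares were estimated from these lists.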

How the data were processed

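RNA of mPTECs was measured on Agilent 1-colour arrays, 1 array each for day 0 and day 3, on 1 slide. Per the file headers, Feature Extraction 10.5.1.1 made the deposited spot values; version 9.1 is the one in the submitters' processing notes. The processed signal is an intensity, background subtracted and, on day 0 but not on day 3, corrected for a multiplicative trend, per the file headers. The deposited flags mark spots above background or out of line. The authors' value table holds a ratio, each spot's processed signal over the 75th percentile of its array. When checked, 43379 of 43379 values matched to within 0.001.

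Here log2 processed signals were set against each array's 75th percentile, outlier spots were dropped (94 and 85), and spots of a probe were averaged. Probes took gene names from RefSeq by accession (26880), symbol (5031) or synonym (831), and 8432 stayed unnamed. The probe with the highest mean over both arrays stood for a gene. A ratio was a bound where 1 array gave no signal well above background. It was taken against the higher of the gene's own signal and the lowest signal well above background there. That lowest signal was 1.14% of the percentile on day 0 and 0.669% on day 3. No ratio was given where the bound had the opposite sign. Thresholds were 4-fold and 2-fold. Precision is limited by the number of arrays. The alternatives were other scalings, background corrections, probe choices and filters. Counting was tested on simulated data. Python 3.11.15, numpy 2.4.6, pandas 2.3.3, R 4.3.3 and limma 3.58.1 were used.

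Named were the 20 brightest genes of each day, the 15 brightest retained, the 12 largest moves of rank each way, the brightest and extreme members of families and lists, and members of groups of related genes. Other genes were chosen after their values were seen. Members and lists were chosen with earlier results of these data known, so they lend no independent support. Some genes that the rules name, and 1 gene in each of 2 panels of the plot of named genes, are not reported here.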

Additional observations from a re-analysis of the deposited data

How the results depend on the processing

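Scaling decided the balance of the 4-fold differences. With spike-in scaling 1578 genes were at least 4-fold higher and 1007 lower, a share of 61.04% higher, and with median centring that share was 56.86%; both add a constant to every ratio. The 2 other scalings, the background corrections, the probe choices, the filters and the keeping of outlier spots left both counts within 1.5 times the reported ones. Over all alternatives with 200 genes in the group, the overlap of the brightest genes lay between 89 and 93, the retained genes between 77 and 93, the lost between 52 and 60 and the gained between 25 and 39. No named gene beyond 4-fold changed direction, and 13 genes named by the rule fell short of 4-fold under at least 1 alternative, among them Ldhb, at -1.79 with median centring, -1.71 with spike-in scaling, -1.66 with normexp background correction and -1.68 without the trend correction. Signals near background limit what can be said of dim genes, and 496 of the lower and 149 of the higher genes lay there.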

Other observations

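Some gene groups outside the text above also kept or exchanged their members. The detoxifying glutathione transferases Gsta1 and Gsta2 stayed among the brightest genes, at 6.96 and 6.84 on day 0 and 7.38 and 6.70 on day 3. The metallothionein Mt2, which binds zinc and copper, went from 6.26 to 7.36 and Mt1 from 4.93 to 5.52. Annexins, calcium-dependent membrane binders, were at least 4-fold higher in 7 of 12 cases, against 5.27% of all genes, and 4 lay within 2-fold. Anxa2 went from 1.98 to 5.91 and Anxa5 from 3.07 to 5.36, while Anxa13, an annexin of intestinal and kidney epithelium, went from 0.93 to -2.87.

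Some immediate early genes had lower signals on day 3. Junb was rank 45 on day 0 at 7.40 and rank 319 on day 3 at 5.68. Fos, a subunit of the AP-1 factor, had signals of 5.44 and 0.13, Jun, its partner, 4.13 and 1.22, and Zfp36, which promotes decay of cytokine messages, 4.90 and 1.20. Of these 4 genes only Junb was in the day 0 top 200. Klf6 stood at 5.22 and 5.28. These genes were chosen after their values were seen.

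For Ptprz1, rank 4 on day 0 and rank 2 on day 3 rest on 1 of its probes, and the mean of its probes gave a ratio of -1.15. The reference gene Actb had signals of 2.79 and 2.82.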
